A study of Callithrix jacchus with 4 samples.

Results

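Potassium channel genes were followed through the nuclei of marmoset primary visual cortex (V1). The members were all genes listed in both deposited tables whose symbol begins with KCN, goes on with one or more letters and then a digit, which gave 72 of the 16383 genes shared by the tables. Adult marmosets of the injured cohort received endothelin-1 (ET-1), a vasoconstrictor peptide that causes a focal ischemic stroke, in V1, and grey matter including the core and penumbra was taken 7 days later. Each of the 3 injured animals gave 1 library (injured replicates 1, 2 and 3), and V1 of 3 uninjured adult animals was pooled into 1 control library. The nuclei carried the annotated cell types excitatory neurons (ExN), inhibitory neurons (InN), astrocytes (Astro), oligodendrocytes (Oligo), oligodendrocyte precursor cells (OPC), Microglia and Endo. The cohorts also differed in the isolation of nuclei, the sequencing facility and platform and the removal of doublets, so that the injury and these steps cannot be told apart.

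Potassium channels let potassium ions leave or enter the cell and thereby set the resting potential, end each action potential and limit firing. In cortex, voltage-gated subunits shape spikes in neurons, inward rectifiers and 2-pore-domain channels carry resting conductance in neurons and glia, and calcium- or sodium-activated channels follow activity. Auxiliary and electrically silent subunits form no channel of their own and alter the gating or surface expression of the pore-forming ones. By symbol, the 72 members comprised 24 voltage-gated pore subunits (KCNA, KCNB, KCNC, KCND, KCNQ, KCNH), 8 silent subunits (KCNF, KCNG, KCNS, KCNV), 8 calcium- or sodium-activated subunits (KCNMA, KCNN, KCNT, KCNU), 9 inward rectifiers (KCNJ), 12 2-pore-domain channels (KCNK) and 11 auxiliary subunits (KCNAB, KCNIP, KCNE, KCNMB). KCNU1 is counted in the calcium- or sodium-activated group as a relative of KCNMA1, not for activation by either ion.

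The injured libraries held 7500, 12527 and 9510 nuclei and the control library 8610, with 22832703 to 48722394 UMIs (unique molecular identifiers, each counting 1 captured RNA molecule) per library. Injured nuclei were deeper, with medians of 3531 to 4504.5 UMIs against 2117 UMIs in control. Pairs of libraries shared 15 to 27 cell barcodes, at most 0.302% of the smaller library. The control library was thin in OPC (171 nuclei), Endo (181 nuclei) and Microglia (129 nuclei), with 186916, 204095 and 124463 UMIs. Levels are given as CPM, the UMIs of a gene per 1000000 UMIs of all genes in the nuclei of that cell type and library. Since the libraries read the 3′ end of transcripts without a length correction, each gene was compared with itself across cell types and libraries. Where members are given as shares of the members' UMIs, these are shares of captured molecules and no order of channel levels. No member was without UMIs in either cohort, and 55 members had at least 50 UMIs in each cohort, while the other 17 did not.

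Most of these 55 members were neuronal. The cell type of highest CPM was ExN or InN in both cohorts for 31 of them (56.4%), against 16.6% of the 12573 genes that met the same minimum. The cell type of highest CPM was the same in injured and control for 32 members (58.2%, against 47.9% of all those genes), and it was shared by all 3 injured animals for 41. Voltage-gated pore subunits were the most neuronal group, with 16 of 18 highest in a neuronal type in both cohorts, compared with 5 of 9 2-pore-domain channels, 4 of 8 inward rectifiers, 2 of 7 calcium- or sodium-activated subunits, 2 of 7 auxiliary subunits and 2 of 6 silent subunits. For 6 of the 55 members the highest cell type of control rested on fewer than 10 UMIs, among them KCNF1 and KCNS2 with 1 UMI each, KCNG3 with 3, KCNN1 with 5 and KCNT1 with 8. When only cell types with at least 10 UMIs of the gene could lead, a rule added after seeing the data, 4 of 6 silent and 4 of 7 calcium- or sodium-activated subunits were neuronal in both cohorts and the other groups kept their counts. Over all members 35 (63.6%, against 20.7% of all genes) were then neuronal, and 35 had the same highest cell type in both cohorts (against 43.5% of all genes). As the cell types were clusters of these same nuclei, levels across cell types are described without a test.

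**Figure D1:**
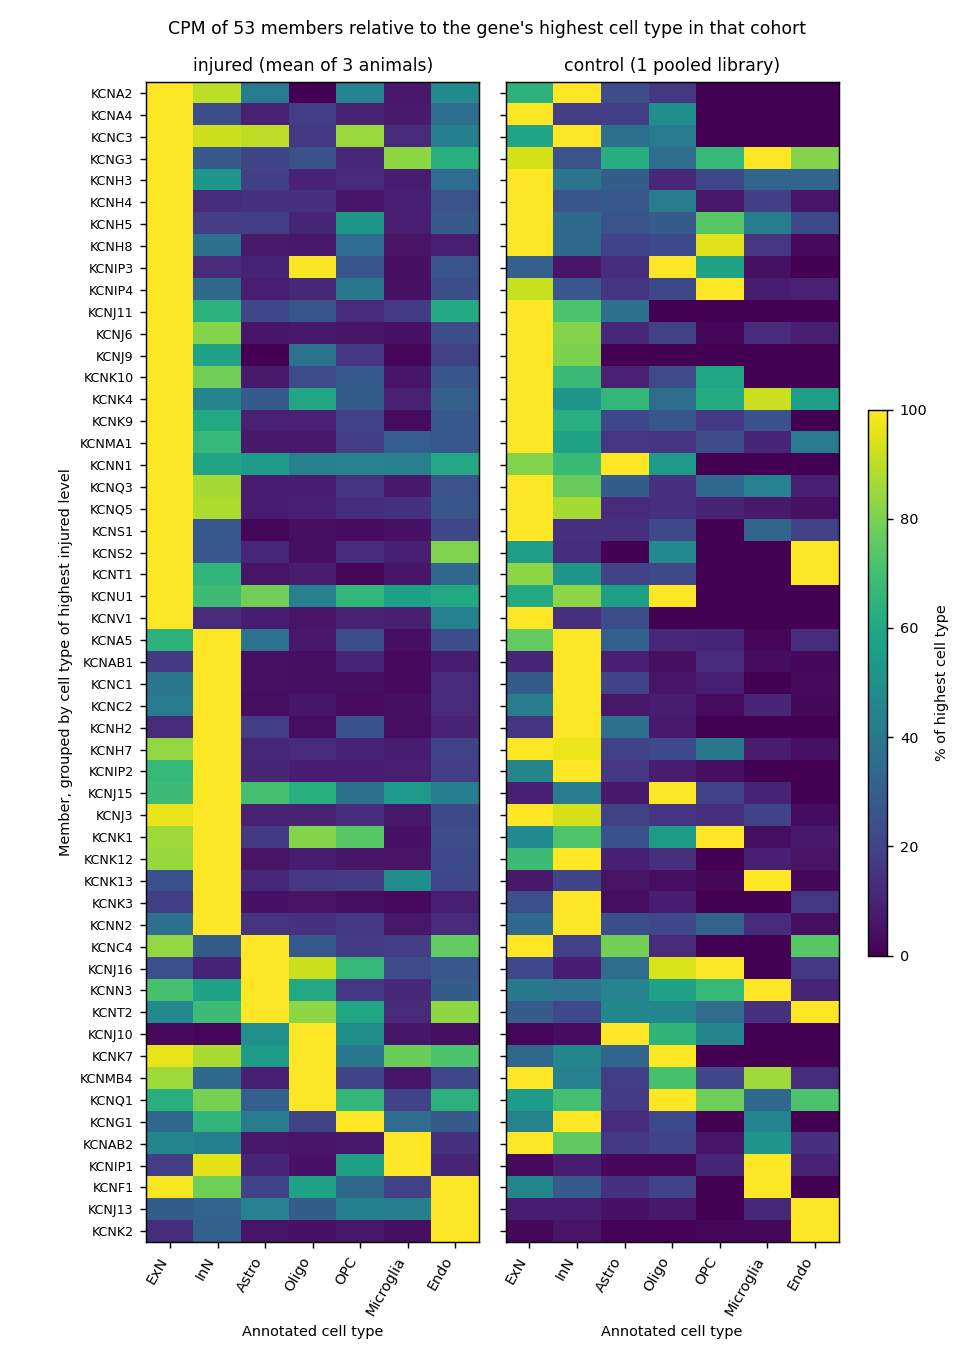
CPM of 53 of the 55 members with at least 50 UMIs in each cohort, in each annotated cell type as a percentage of that gene's highest cell type, for the mean of the 3 injured animals (left) and the control library (right). Bright cells in the first columns of both panels mark the members that were highest in ExN or InN, while the lower rows hold members highest outside neurons.

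Of the voltage-gated group, KCNQ5 is a subunit of the M-type current that restrains repetitive firing. It gave 2668, 3008 and 2908 CPM in ExN of injured replicates 1, 2 and 3 and 2364 CPM in ExN of the control library. In InN its mean was 2509 ± 72.7 CPM (SD, n = 3) in injured animals and 2042 CPM in control, and in Astro 229.9 ± 9.54 and 289 CPM. KCNQ3, another M-type subunit, was likewise highest in ExN and then InN in both cohorts, with 86.7 ± 6.77 CPM in injured and 109 CPM in control ExN (SD, n = 3). Neither passed the test in ExN (edgeR, adjusted p = 0.111 for KCNQ5 and 0.277 for KCNQ3). The fast-spiking subunits KCNC1 and KCNC2 were highest in InN in both cohorts: KCNC2 gave 1205, 1234 and 1120 CPM in injured InN and 966 CPM in control InN, and KCNC1 gave 128.9, 169.6 and 130.5 CPM in injured InN and 190.3 CPM in control InN. KCNH7, an ether-a-go-go-related subunit, gave 117 ± 16.3 CPM in ExN and 139.5 ± 16.5 CPM in InN of injured animals. Within a library its log2 ratio of InN over ExN was 0.40, 0.08 and 0.30 in the injured animals and -0.04 in control, so that InN was the higher in each injured animal but not in control. Some textbook channels had few UMIs, which limits what can be said of them and does not give the level of the channel: summed over all cell types, KCND2 had 51 injured and 18 control UMIs, KCND3 77 and 37, KCNA2 149 and 141, and KCNA3 100 and 7.

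Among calcium- and sodium-activated channels, KCNMA1, the pore of the large-conductance (BK) channel, was highest in ExN with 2515, 2933 and 3020 CPM in the injured animals and 2565 CPM in control. It followed in InN with 1883 ± 303 CPM (SD, n = 3) and 1478 CPM. KCNT2, a sodium-activated channel, had no single main cell type: in injured animals it gave 459 ± 72.9 CPM in Astro, 382 ± 83.4 CPM in Endo, 382 ± 23.3 CPM in Oligo and 315 ± 37.9 CPM in InN. Within each animal Astro lay above Oligo and Oligo above InN, while the place of Endo changed from animal to animal. In control it was highest in Endo with 749.7 CPM, ahead of 349 CPM in Astro and 343 CPM in Oligo. In the RefSeq annotation of a newer marmoset assembly 19 members, KCNT2 among them, overlap another protein-coding gene, so that their counts are uncertain. KCNN2, a small-conductance channel, was an InN gene in both cohorts, with 239.8 ± 20.96 CPM in injured and 269 CPM in control InN. KCNN3, of the same class, was highest in Astro of injured animals (52.8 ± 5.82 CPM) and in Microglia of control (96.4 CPM, from 12 UMIs). KCNT1, a relative of KCNT2, was highest in ExN of injured animals, at 26.7 ± 2.07 CPM (SD, n = 3).

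The inward rectifiers included members that led in neurons, in glia and, as KCNJ13 with 6.72 CPM in injured and 68.6 CPM in control, in Endo. KCNJ3 and KCNJ6, subunits of the channels opened by G-protein-coupled receptors, gave 599 ± 59.2 and 465 ± 12.97 CPM in injured ExN and 618 ± 10.3 and 379 ± 28.5 CPM in injured InN (SD, n = 3). KCNJ9, of the same kind, reached 4.69 ± 0.388 CPM in injured ExN. KCNJ10, the glial rectifier that takes up potassium released by neurons, was highest in Oligo in injured animals and in Astro in control. In Astro it gave 49.1, 76.9 and 40.7 CPM in injured replicates 1, 2 and 3 and 129.5 CPM in control, all 3 injured animals lying below control. In Oligo it gave 115.5, 95.5 and 121 CPM in the injured animals and 84.6 CPM in control, all 3 lying above it. Neither difference passed the test (edgeR, adjusted p = 0.074 in Astro with a log2 fold change of -1.11 ± 0.34, SE, and 0.182 in Oligo with 0.49 ± 0.22). KCNJ16, its partner in heteromeric channels, gave 39.7 ± 7.41 CPM in injured and 20.8 CPM in control Astro (SD, n = 3), and this difference did not pass either (edgeR, adjusted p = 0.103). KCNJ10 and KCNJ9 overlap in the RefSeq annotation.

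Of the 2-pore-domain channels, KCNK2, a mechanically and lipid-sensitive leak channel, was highest in Endo in every library, followed by InN with 100.6 ± 8.21 CPM in injured (SD, n = 3) and 108.6 CPM in control. KCNK13, which carries a background conductance for which microglia are known, was highest in Microglia in control (466 CPM) and in InN in injured animals (42.1 ± 9.12 CPM, SD, n = 3). KCNK10, related to KCNK2, was highest in ExN with 104.5 ± 2.95 CPM in injured and 99.4 CPM in control. KCNK1 was at similar levels in injured InN, ExN, Oligo and OPC, at 149 ± 31.2, 128 ± 10.2, 121 ± 21.7 and 111 ± 30.8 CPM (SD, n = 3), with InN the highest of them in each animal and the order of the others not shared by all, and was highest in OPC of control at 214 CPM (40 UMIs). Of the auxiliary subunits, KCNAB1 was an InN gene with 515 ± 76.2 CPM in injured and 480.4 CPM in control, and KCNIP4, a calcium-binding partner of A-type channels, gave 344 ± 39.8 CPM in injured and 387 CPM in control ExN, the latter slightly below the 423 CPM of control OPC. KCNIP1, of the same family, was highest in Microglia in control, at 3399 CPM, and reached 363 ± 61.6 CPM in Microglia and 348 ± 23.5 CPM in InN of injured animals, an order that held in 2 of the 3. KCNMB1 and KCNIP1 overlap in the RefSeq annotation, which leaves their counts uncertain.

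Between the 2 neuronal types, the preference of a member was largely kept from library to library. Of 38 members with at least 10 UMIs in ExN and in InN of each of the 4 libraries, 15 were higher in InN than in ExN in all 4, 19 were higher in ExN in all 4, and 4 were mixed. No such count over all genes is given, so that this is not read as particular to the members. KCNH2, an ether-a-go-go-related subunit best known from cardiac repolarization, was 8.41-fold higher in InN in injured animals (geometric mean, n = 3) and 6.5-fold higher in control. KCNAB1 was 5.97-fold higher in InN in injured and 9.5-fold in control, KCNK3, an acid-sensitive leak channel, 5.52-fold and 4.1-fold, KCNN2 2.72-fold and 2.93-fold, and KCNC2 2.41-fold and 2.37-fold. On the excitatory side, KCNIP3 was 8.75-fold higher in ExN in injured animals and 5.38-fold in control, KCNH4 7.81-fold and 3.79-fold, KCNH5, like KCNH4 of the ether-a-go-go family, 5.49-fold and 2.93-fold, and KCNIP4 2.91-fold and 3.36-fold. KCNT2 was among the mixed members: the log2 ratio of InN over ExN was 0.62, 0.43 and 0.48 in the injured animals and -0.42 in control, so that the control library alone had it higher in ExN.

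**Figure D2:**
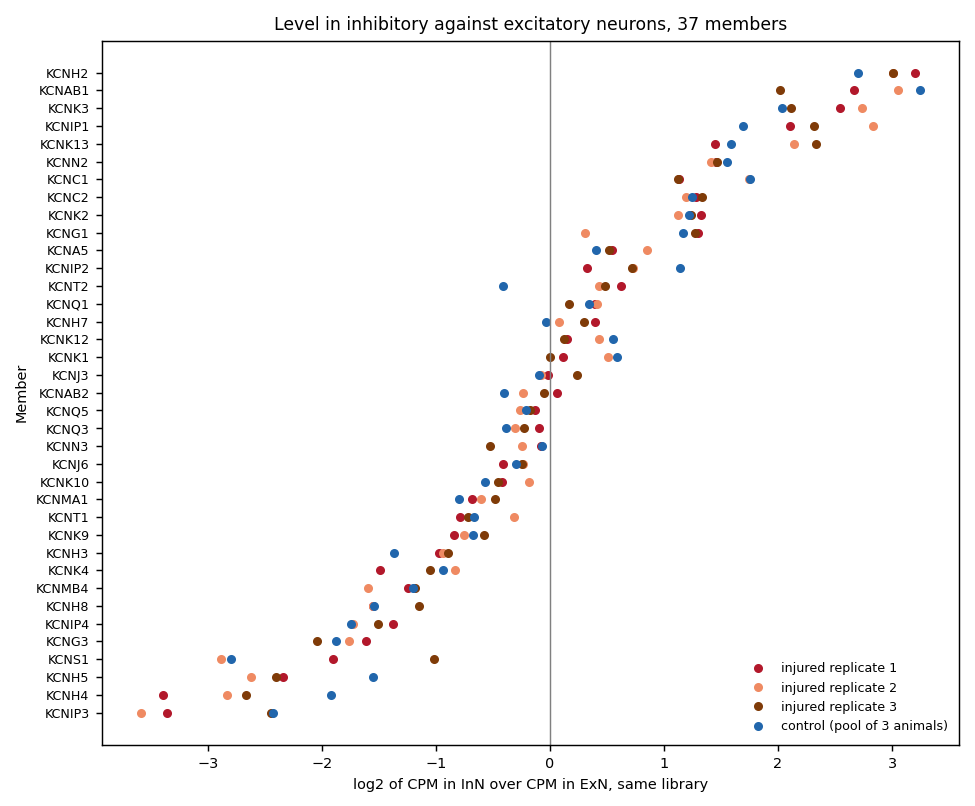
For 37 of the 38 members, the log2 ratio of CPM in InN over CPM in ExN within the same library (horizontal axis), with 1 point per library coloured by injured replicate 1, 2, 3 or the control pool. 15 members lie to the right of 0 in all 4 libraries and 18 to the left, and KCNT2 has the injured animals on the right and the control library on the left.

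Summed over all 72 members, potassium channel genes took 1.05%, 1.11% and 1.13% of the UMIs of ExN in injured replicates 1, 2 and 3 and 1.001% (95% interval 0.997 to 1.006) in control. In InN the mean was 1.06 ± 0.0528% in injured animals (SD, n = 3) and 0.934% (0.923 to 0.945) in control, so that in both neuronal types all 3 injured animals lay above the control library. In the 5 other cell types all 3 injured animals lay below it. The mean was 0.190 ± 0.00701% against 0.251% in Astro, 0.202 ± 0.0187% against 0.289% in Oligo, 0.273 ± 0.0166% against 0.362% in OPC, 0.245 ± 0.00854% against 0.560% in Microglia and 0.373 ± 0.0258% against 0.500% in Endo (SD, n = 3). In Microglia and Endo 1 member each carried much of this: KCNIP1 made up 60.7% of the member UMIs of control Microglia and KCNK2 39.9% of those of control Endo. Without KCNIP1 the other members took 0.212%, 0.219% and 0.195% of the UMIs of injured Microglia and 0.2201% of those of control. Without KCNK2 the direction in Endo turned, with 0.341%, 0.367% and 0.314% in the injured animals and 0.3004% in control. In Astro, Oligo and OPC, where KCNMA1 led in control, the injured animals lay below control without it as well. These shares without the member leading in control were added after seeing the data. On nuclei with at most 2500 genes, the injured shares of Astro and Endo came close to those of control, with the ratios given at the end. General neuron markers (SNAP25, SYT1, RBFOX3 and STMN2 summed) moved in the direction of the share in ExN, InN, Astro, Oligo and Microglia. They gave 5948, 6384 and 6309 CPM in injured against 5279 CPM in control ExN and 4433, 4373 and 4461 against 3625 CPM in InN. They gave 577, 663 and 489 CPM in injured against 1014 CPM in control Astro and 438, 825 and 637 against 888 CPM in Oligo, and 304, 544 and 413 against 627 CPM in Microglia. In OPC (504, 582 and 647 against 412 CPM) and Endo they were higher in injured while the share was lower. Their part in the shares was not tested. Of the member UMIs of injured Microglia, 34.9% were of KCNMA1, 16.9% of KCNQ5 and 15.0% of KCNIP1. Intervals are exact (Clopper-Pearson) and cover counting error only. With 3 libraries against 1 there are only 4 arrangements, so that no permutation test of these shares could pass 0.05, and they stand without a test.

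**Figure D3:**
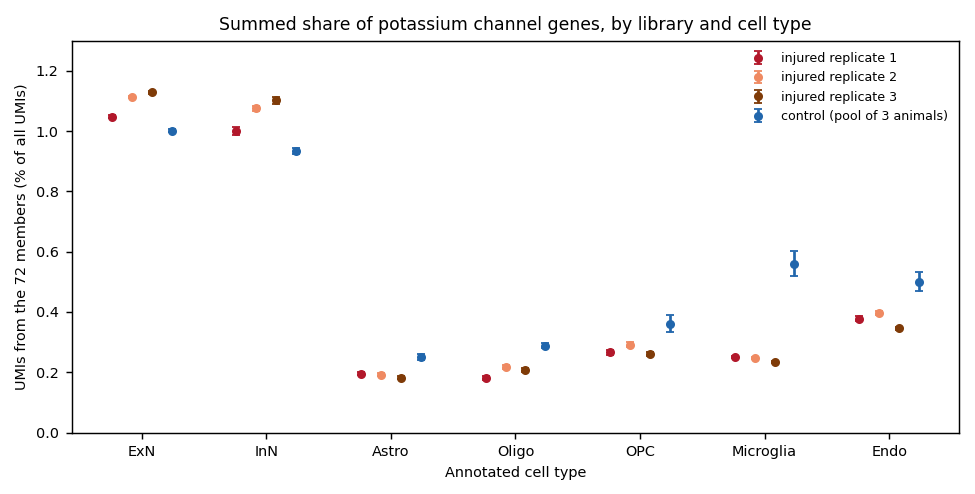
Share of all UMIs that came from the 72 potassium channel genes (vertical axis, percent), by annotated cell type, with 1 point per library and its exact 95% binomial interval. The injured animals lie above the control library in ExN and InN and below it in the 5 other cell types. The gap in Microglia (0.245% against 0.560%) is 0.209% against 0.2201% without KCNIP1, and that in Endo (0.373% against 0.500%) turns to 0.341% against 0.3004% without KCNK2.

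Among the 3 injured animals, levels were close in neurons. Of 39 members with at least 100 UMIs in ExN of each animal, the median ratio of the highest to the lowest animal was 1.22 and 35 members stayed under 1.5, with the widest ratio, 1.72, for KCNF1. In InN the median was 1.23 over 26 members. It was 1.46 over 16 members in Microglia and 1.303 over 9 members in Astro, where KCNA5, a delayed rectifier subunit, differed 2.33-fold between animals.

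Injured and control were then compared in each cell type with edgeR on counts summed per library. With a single control library the spread comes from the 3 injured animals and is assumed for the control, and p-values are adjusted over all genes tested in that cell type. The limits for a call were an adjusted p of 0.01, a natural-log fold of 0.25 in either direction and detection in 10% of the nuclei of one cohort or the other. Over the 7 cell types, 11 combinations of member and cell type were called, of 350 tested, involving 9 members, with 6 higher and 5 lower in injured. Log2 fold changes are given with an SE derived from the F statistic of the edgeR test. It is the absolute log2 fold change divided by the square root of F.

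In ExN, 2 of 64 members tested were higher and 1 was lower, where 2.61% of all genes tested were called higher and 1.25% lower. KCNF1, a silent subunit that modifies the delayed rectifier of neurons, gave 17.0, 26.5 and 29.2 CPM in injured replicates 1, 2 and 3 and 3.69 CPM in control (63 UMIs). All injured animals lay above control, with a log2 fold change of 2.84 ± 0.39 (edgeR, adjusted p = 0.00533). KCNF1 met the detection limit through injured nuclei alone, since its 63 control UMIs were spread over 5402 nuclei. KCNMB4, the neuronal auxiliary subunit of the BK channel, gave 122, 112 and 127 CPM in injured and 75.1 CPM in control. It rose by 0.80 ± 0.12 (edgeR, adjusted p = 0.00765), and the pore KCNMA1 had 0.26 ± 0.17 (edgeR, adjusted p = 0.304). KCNQ1, a delayed rectifier subunit best known from heart and epithelia, gave 38.2, 32.1 and 36.6 CPM in injured and 90.5 CPM in control, so that every injured animal lay well below control, with a log2 fold change of -1.23 ± 0.13 (edgeR, adjusted p = 0.00222). Without injured replicate 1, KCNQ1 and KCNMB4 kept their size but not the call (edgeR, adjusted p = 0.0171 and 0.0389). KCNMB4 also lost it with library size as the only scaling, after thinning and on nuclei with at most 2500 genes, and KCNF1 on the latter. With the adjusted p limit at 0.05, where 12.1% of all genes were called, KCNIP3 and KCNIP2, calcium-binding partners of A-type channels, were also higher by 1.21 ± 0.24 and 0.52 ± 0.15 (edgeR, adjusted p = 0.0156 and 0.0462). Over all members the median log2 fold change was 0.11, compared with 0.12 over sodium channels and 0.22 over calcium channel subunits, and over all genes tested it was within 0.01 of 0. None of the listed layer markers passed the test in ExN, RORB being nearest with 0.54 ± 0.18 (edgeR, adjusted p = 0.0703).

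In InN, 1 of 57 members tested was higher (background 2.2%) and 1 was lower (background 1.22%). KCNT2 gave 358, 296 and 289 CPM in injured and 165 CPM in control, with no overlap, and rose by 1.03 ± 0.17 (edgeR, adjusted p = 0.00408; 0.0117 without injured replicate 1). KCNQ1 gave 50.03, 42.9 and 41.1 CPM in injured and 115 CPM in control, and fell with a log2 fold change of -1.27 ± 0.17 (edgeR, adjusted p = 0.00136). At an adjusted p limit of 0.05 (background 11.0%), KCNH3 was higher and KCNH5 and KCNK13 were lower, with log2 fold changes of 1.06 ± 0.30, -0.72 ± 0.15 and -1.07 ± 0.23. Of 6 markers of InN subclasses, SST gave 57.2, 50.6 and 77.5 CPM in injured and 12.3 CPM in control (edgeR, adjusted p = 0.0014). VIP gave 61.2, 50.7 and 77.2 against 6.16 CPM. PVALB gave 26.4, 54.2 and 27.2 against 61.3 CPM and did not pass (edgeR, adjusted p = 0.246). Neither did LAMP5, LHX6 and ADARB2, with log2 fold changes of 0.65, -0.48 and -0.03 (edgeR, adjusted p = 0.109, 0.156 and 0.921). The 6 markers summed to 715, 627 and 652 CPM in injured and 654 CPM in control. The part of the subclass makeup in the KCNT2 and KCNQ1 differences was not tested.

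A few members passed the adjusted p limit of 0.01 but had a UMI in less than 10% of the nuclei of both cohorts and were therefore not called. These 6 combinations were looked at after their values were seen. KCNJ15, an inward rectifier, gave 3.07, 0.457 and 2.97 CPM in injured Oligo and 83.8 CPM in control Oligo (13 injured UMIs in all and 107 control UMIs), and 6.004, 3.30 and 0.990 CPM in injured InN against 35.3 CPM in control InN. In ExN it gave 2.75, 2.34 and 1.96 CPM against 7.49 CPM. The log2 fold changes were -5.16 ± 0.46, -3.37 ± 0.48 and -1.57 ± 0.27 (edgeR, adjusted p = 0.00323, 0.00225 and 0.00959), and the shares of control nuclei with a UMI were 8.82%, 9.99% and 2.3%. KCNF1 was higher in InN as in ExN, with 18.0, 16.7 and 22.5 CPM in injured and 2.27 CPM in control, from 7 control UMIs (3.15 ± 0.44). KCNK13 was lower in ExN (10.6 ± 1.16 against 32.1 CPM, SD, n = 3), and KCNA2, an axonal channel subunit, was lower in InN (1.69 ± 0.401 against 9.73 CPM).

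Endo held the most called members, 3 of 49 higher (background 4.19%) and 3 lower (background 1.99%). KCNK2 gave 364, 295 and 318 CPM in injured and 1994 CPM in control, a log2 fold change of -2.48 ± 0.20 (edgeR, adjusted p = 0.000614). KCNIP1 gave 46.9, 36.5 and 31.0 CPM against 318.5 CPM, a log2 fold change of -2.95 ± 0.27 (edgeR, adjusted p = 0.000636). Both lay far below control in every animal, from 407 and 65 control UMIs, and KCNQ1 was lower too, at 40.7, 33.9 and 33.7 CPM against 118 CPM (-1.58 ± 0.31, edgeR, adjusted p = 0.00962). In the other direction, KCNQ5 gave 734, 851 and 699 CPM in injured and 103 CPM in control (21 UMIs), a log2 fold change of 3.02 ± 0.32 (edgeR, adjusted p = 0.000864). KCNJ3 gave 152, 151 and 115 CPM against 19.6 CPM, and KCNC2 gave 145.5, 171 and 112 CPM against 19.6 CPM, each from 4 control UMIs, with 2.96 ± 0.49 and 3.00 ± 0.56 (edgeR, adjusted p = 0.00473 and 0.00808). KCNJ3 and KCNC2 met the detection limit through injured nuclei alone, as control Endo had 4 UMIs of each over 181 nuclei. Without injured replicate 1 the calls of KCNJ3, KCNC2 and KCNQ1 were lost (edgeR, adjusted p = 0.0123, 0.0193 and 0.0169), and those of KCNC2 and KCNQ1 also under both other scalings. The call of KCNQ1 was lost as well after thinning and on nuclei with at most 2500 genes (edgeR, adjusted p = 0.032 and 0.0196), with log2 fold changes of -1.80 and -1.72. At an adjusted p limit of 0.05 (background 13.6%), KCNIP4, KCNA5 and KCNJ6 were higher as well.

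The 3 members that were higher in injured Endo had more CPM in ExN and InN than in Endo, and general neuron markers moved with them. SNAP25, SYT1, RBFOX3 and STMN2 together gave 2176, 2011 and 1625 CPM in injured Endo and 441 CPM in control Endo, all 4 being detected in every library. The Endo markers themselves differed: FLT1, PECAM1 and VWF summed to 1483, 1799 and 2159 CPM in injured and 505 CPM in control, and the mural markers PDGFRB, RGS5, NOTCH3 and ACTA2 to 832, 712 and 1071 against 181 CPM, while the 5 astrocyte markers gave 458, 299 and 371 against 1127 CPM. Microglia markers, 5 summed, gave 740, 555 and 402 CPM in injured Endo against 196 CPM in control Endo. As a measurement chosen after seeing the data, the fit was repeated on nuclei without a UMI of the 4 neuron markers, which kept 14.5% to 20.1% of injured and 74.6% of control Endo nuclei. There KCNK2 had -1.80 and KCNIP1 -2.76, both still called, and KCNQ5 2.21, also called, whereas KCNJ3 and KCNC2 had 1.78 and 1.72 and KCNQ1 -1.86 and were not (edgeR, adjusted p = 0.0723, 0.0854 and 0.0148). Of the members higher in all Endo nuclei at the limit of 0.05, KCNIP4 turned to -0.57, KCNA5 had 0.16 and KCNJ6 0.94 (edgeR, adjusted p = 0.609, 0.879 and 0.416). The part of the marker differences in these results was not tested further.

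**Figure D4:**
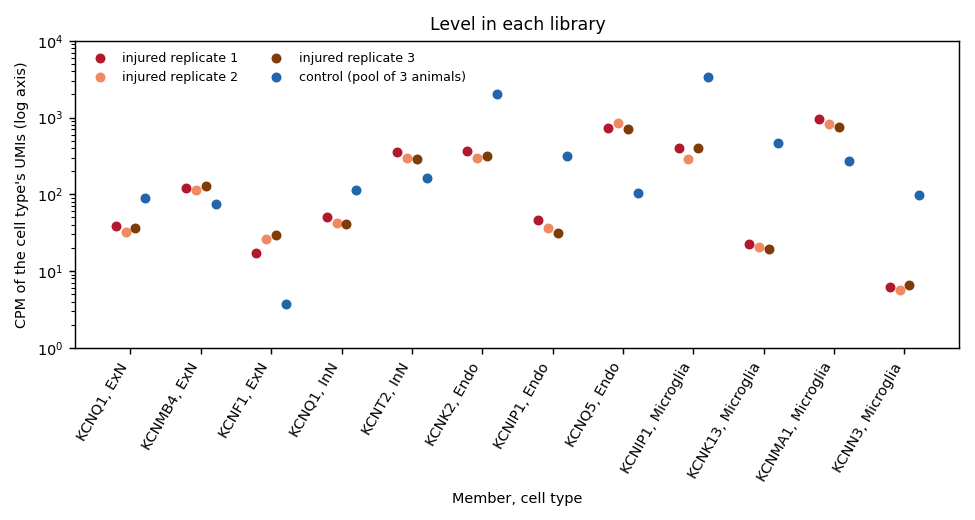
CPM of 12 combinations of member and cell type in each library (log axis), coloured by injured replicate 1, 2, 3 or the control pool. The 3 injured animals lie on the same side of control in each, from KCNQ1 in ExN (32.1 to 38.2 against 90.5 CPM) to KCNIP1 in Microglia (291 to 400.4 against 3399 CPM). Each combination was called within its cell type or in the test between cell types, so that its distance from control follows from this choice.

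In Microglia no member was called at an adjusted p of 0.01, and neither was any other of the 13470 genes tested (background 0.0% higher and 0.0% lower). 10 of 57 members had an unadjusted p below 0.05, a smaller share than the 21.2% of all genes. DESeq2 called 4 members (background 2.44%), and 6 members passed an adjusted p limit of 0.05 (background 2.58%), 3 in each direction. KCNK13 gave 22.3, 20.7 and 19.1 CPM in injured and 466 CPM in control (58 UMIs), a log2 fold change of -4.24 ± 0.20 (edgeR, adjusted p = 0.0172). KCNIP1 gave 396, 291 and 400.4 CPM against 3399 CPM (423 control UMIs), with -2.98 ± 0.20 (edgeR, adjusted p = 0.0172). In both, the injured animals were close to one another and far below control. KCNH5, a voltage-gated subunit, was lower by the same limit (-2.02 ± 0.27), but had -0.96 after thinning and -0.95 on nuclei without a neuron marker UMI (edgeR, adjusted p = 0.591 and 0.37). KCNMA1 was higher at 945, 835 and 744 CPM against 273 CPM (1.87 ± 0.23, edgeR, adjusted p = 0.0349), as were KCNQ5 (1.64 ± 0.26) and KCNAB2, an auxiliary subunit (1.83 ± 0.25). On nuclei without a neuron marker UMI, 27.2% to 29.8% of injured and 76.7% of control Microglia nuclei, KCNK13 and KCNIP1 had -4.20 and -3.02 and both passed the limit of 0.01 (edgeR, adjusted p = 0.00929 for each).

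Microglia markers did not move as one. CSF1R gave 174, 179 and 212 CPM in injured and 795 CPM in control, and CX3CR1 5.81, 11.6 and 14.5 against 233 CPM, while CD74 gave 1007 to 1416 against 8.03 CPM, all 3 at an adjusted p below 0.05 (edgeR). DOCK8 gave 1093 to 1239 against 1253 CPM, and P2RY12 gave 116 to 181 against 233 CPM. Summed over the 5 markers the level was 2598, 2880 and 2691 CPM in injured and 2523 CPM in control. Control Microglia also held 586.5 CPM of the 3 Endo markers, compared with 221 to 382.5 CPM in injured, and the 4 neuron markers gave 304 to 544 CPM in injured and 627 CPM in control. The part of these markers in the member differences was not tested.

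In Astro, Oligo and OPC no member was called at 0.01. In Astro 0 of 44 were higher or lower (background 1.12% and 0.378%), with 15 at an unadjusted p below 0.05 (background 30.0%) and 0 called by DESeq2 (background 2.79%). In Oligo 0 of 44 were called (background 0.619% and 0.155%), with 17 at an unadjusted p below 0.05 (background 30.8%) and 2 called by DESeq2 (background 1.75%). In OPC 0 of 35 were called (background 0.061% and 0.00871%), with 11 at an unadjusted p below 0.05 (background 19.9%) and 1 called by DESeq2 (background 3.99%). At an adjusted p limit of 0.05, KCNMA1, KCNJ3 and KCNIP4 were lower in Astro (background 7.16%), with log2 fold changes of -0.93 ± 0.19, -0.88 ± 0.23 and -0.998 ± 0.25. The 4 neuron markers together gave 577, 663 and 489 CPM in injured Astro against 1014 CPM in control, and on nuclei without any of their UMIs the values turned to 0.40 for KCNMA1 and 0.50 for KCNIP4 and became -0.33 for KCNJ3. In Oligo (background 4.32%) KCNMB4 was higher, at 167, 124 and 129.6 CPM in injured against 53.2 CPM in control (1.5 ± 0.25), and KCNQ1 was lower, at 65.0, 43.9 and 60.1 against 164 CPM (-1.44 ± 0.24, edgeR, adjusted p = 0.0165 and 0.0169). On Oligo nuclei without neuron marker UMIs both had adjusted p-values under 0.01, with 1.57 and -1.72. In OPC (background 1.19%) KCNQ1 was lower, at 40.0, 35.9 and 35.9 CPM against 128 CPM, from 24 control UMIs (-1.66 ± 0.30). The median log2 fold change of members was -0.69 in Astro and -0.70 in Oligo, compared with 0.05 and 0.02 over all genes tested. The sum of the 4 neuron markers was lower in injured Astro and Oligo too, while SNAP25 alone of them had positive log2 fold changes, 0.18 and 0.32. The part of the neuron markers in these medians was not tested. Genes of 2 other channel families also had negative medians, calcium channel subunits -0.75 in Astro and -0.61 in Oligo and sodium channels -0.35 and -0.83. Their difference from the members was not tested. In the thin cell types of control the medians depended on genes with 0 UMIs in a cohort, 4 of 35 members in OPC, 20 of 57 in Microglia and 12 of 49 in Endo. The fitted medians of members and of all genes were -0.11 and 0.16 in OPC, -0.21 and 0.42 in Microglia and 1.38 and 0.26 in Endo. With such genes set to their bound against 3 UMIs, which is 24.1 CPM in control Microglia, they were -0.40 and -0.02, -1.88 and -0.30, and 0.67 and -0.05, so that the median of all genes changed sign in each, and no difference of the members is read from them.

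KCNQ1 had a negative log2 fold change in all 7 cell types, from -0.64 in Astro to -2.06 in Microglia, and was called in ExN, InN and, by a margin that most alternatives removed, Endo. Of 34 members tested in all 7 types only KCNQ1 and KCNK2 were negative throughout (KCNK2 by no more than -0.01 in InN), compared with 8.33% of the 10691 genes tested in all 7, and none was positive throughout, compared with 18.0%. For KCNQ1 no cell type differed from the mean of the other 6 (edgeR, smallest adjusted p = 0.181, in Astro). In Astro the sign of KCNQ1 turned on nuclei without neuron marker UMIs, to 0.34.

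**Figure D5:**
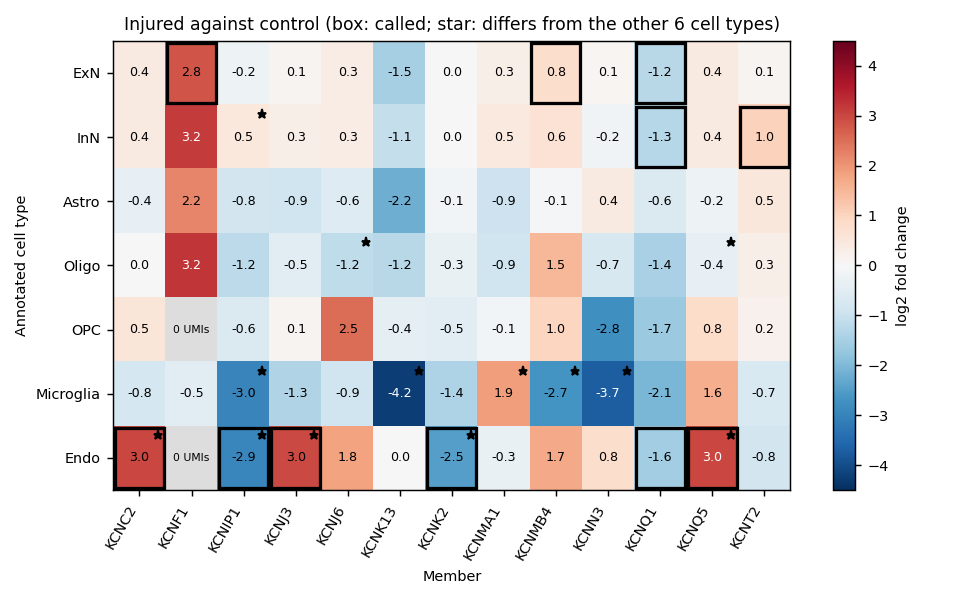
Log2 fold change of injured against control (colour and printed value) for the members called in any cell type or in the test between cell types, by annotated cell type. Boxes mark the 11 calls within a cell type, stars the 13 differences between a cell type and the mean of the other 6, and grey cells combinations with 0 UMIs in a cohort. KCNQ1 is negative in every row, and most stars lie in Microglia and Endo.

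Whether the change in one cell type differed from the others was tested as an interaction in a single fit over all sums, with library as a block, at an adjusted p below 0.01. Of 66 members tested, 39 had 0 UMIs of a cohort in some cell type, which leaves the contrast without a usable estimate, and no call fell among these. The 27 others gave 13 calls, 5 in Endo, 5 in Microglia, 2 in Oligo and 1 in InN, with none in ExN, Astro and OPC. Of the 8733 genes that likewise had UMIs of both cohorts in every cell type, 5.0% were called in Endo, 3.79% in Microglia, 0.469% in Oligo, 0.16% in InN, 0.344% in ExN, 0.802% in Astro and 0.298% in OPC. Over all 14772 genes, the basis for the 66 members, the shares were 3.38% in Endo, 2.53% in Microglia, 0.305% in Oligo, 0.129% in InN, 0.25% in ExN, 0.528% in Astro and 0.19% in OPC. Each contrast of a member uses all 7 of its cell types, so that several calls of 1 member are not separate differences. In Endo the change of KCNK2 lay below the mean of the other cell types by a log2 difference of -2.09 ± 0.24 (edgeR, adjusted p = 1.8e-05) and that of KCNIP1 by -2.06 ± 0.36, while KCNQ5 (2.57 ± 0.37), KCNJ3 (3.33 ± 0.66) and KCNC2 (2.96 ± 0.65) lay above it. In Microglia KCNK13 (-3.14 ± 0.40, edgeR, adjusted p = 3.9e-05) and KCNIP1 (-2.06 ± 0.26, edgeR, adjusted p = 3.93e-05) lay below the mean, and so did KCNMB4 (-3.60 ± 0.72) and KCNN3 (-3.29 ± 0.66), which rest on 8 and 12 control UMIs. KCNMA1 lay above it (2.17 ± 0.37). In InN the change of KCNIP1 lay above the mean of the other 6, all negative, by 1.95 ± 0.29 (edgeR, adjusted p = 0.00394). Within InN itself KCNIP1 was not called, with 321, 363 and 361 CPM in injured and 272 CPM in control and a log2 fold change of 0.46 (edgeR, adjusted p = 0.0604). In Oligo, KCNQ5 (-1.42 ± 0.25) and KCNJ6 (-1.78 ± 0.32) lay below the mean, and both calls were lost when any one injured replicate was left out. Neither was called within Oligo. Over the 7 cell types the log2 fold changes ran from -0.36 to 3.02 for KCNQ5 and from -1.15 to 2.51 for KCNJ6. These contrasts therefore also carry the rises in other cell types. KCNQ5 kept its call in 2 of 7 alternatives and KCNJ6 in 0 of 7. Within Oligo the sign of KCNQ5 turned on nuclei without a neuron marker UMI, to 0.94. The calls of KCNIP1 in InN, KCNC2 in Endo and KCNMB4 and KCNN3 in Microglia were lost without at least 1 of the replicates as well (edgeR, highest adjusted p without a replicate = 0.0478, 0.0311, 0.0269 and 0.0229). After thinning nuclei to 1000 UMIs the difference of KCNN3 shrank to -1.76 (edgeR, adjusted p = 0.726), and that of KCNMB4, at -4.40, no longer passed (edgeR, adjusted p = 0.0284), nor did that of KCNC2 in Endo (3.74, edgeR, adjusted p = 0.0213). Without the library block the calls of KCNC2 in Endo (edgeR, adjusted p = 0.0422) and KCNIP1 in InN were lost too.

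Of 20 other genes of potassium handling, 16 were listed in both tables. In Endo DPP10, an auxiliary protein of A-type channels, was higher, with a log2 fold change of 2.78 ± 0.41 (edgeR, adjusted p = 0.00286). Of the voltage-gated sodium channel genes, 3 of 13 tested were called higher in ExN, 3 of 12 in InN and 3 of 13 in Endo, where the background of higher calls was 2.61%, 2.2% and 4.19%. Of the calcium channel subunit genes, 1 of 23 tested was called higher in ExN and 1 of 19 in Endo.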

How the data were processed

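Nuclei of V1 from 3 injured marmosets (1 library each) and from a pool of 3 uninjured ones (1 library) were profiled with a droplet-based 3′ platform. The authors ran Cell Ranger 3.1.0, as their processing notes state, against calJac3 and Ensembl gene models. They removed doublets of injured nuclei with Scrublet, and clustered and annotated each cohort by itself in Seurat. The deposited tables give whole-number UMI counts, not normalized, and for each nucleus its library and cell type. All per-sample columns could be mapped, and injured replicates were numbered in accession order. A limit of 2500 genes per nucleus is stated for control, but the deposited control table holds nuclei beyond it (4437 of 5402 ExN and 819 of 1011 InN nuclei had at most 2500).

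Members' UMIs were read from sums over the nuclei of a cell type in a library. Differences were tested with edgeR 4.0.16 in R 4.3.3 (TMM, filterByExpr, quasi-likelihood F-test) on all genes passing the filter, with Benjamini-Hochberg adjustment within a cell type. The interaction was fitted to all sums with library as a block. DESeq2 1.42.0, other scalings, no filter, thinning to 1000 UMIs per nucleus, nuclei with at most 2500 genes and leaving out each injured animal were the alternatives, and nuclei without a neuron marker UMI and sums without the member leading in control and a minimum of 10 UMIs for a leading cell type were added after seeing the data. Both fits were tested on simulated counts. Members and lists were chosen with earlier results of these data known. Named members were those called in either test, the 3 members with the largest UMI share in each cell type of injured animals, and a list with textbook roles, of which KCNA1, KCNJ8, KCNH1, KCNB2 and KCNJ2 are not among the genes shared by both tables. Overlaps of genes were read from RefSeq (calJac240_pri), where all 72 members were found by symbol. Some members and other genes are not reported here. P-values set the difference between injured and control against the spread between injured animals, which is assumed for the control library. The spread between control animals does not enter. Depth limits rare genes most in control OPC, Microglia and Endo. Sums and figures used Python 3.11.15, pandas 2.3.3 and matplotlib 3.10.9.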

Additional observations from a re-analysis of the deposited data

Results flagged for a closer look

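In 13 cases the change of a member in one cell type differed from the mean change in the other 6 cell types in the interaction test (edgeR, adjusted p below 0.01), which the text above gives with errors. In Endo the log2 differences were 2.96 for KCNC2, -2.06 for KCNIP1, 3.33 for KCNJ3, -2.09 for KCNK2 and 2.57 for KCNQ5. In Microglia they were -2.06 for KCNIP1, -3.14 for KCNK13, 2.17 for KCNMA1, -3.60 for KCNMB4 and -3.29 for KCNN3. In InN KCNIP1 had 1.95, and in Oligo KCNJ6 had -1.78 and KCNQ5 -1.42. The neuron, Endo and mural marker sums that moved in Endo, and the Microglia markers, are given beside the members, and their part was not tested.

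Some potassium channel genes had UMIs in the injured libraries but are not listed in the control table, so that they entered no comparison. KCNE3, an auxiliary subunit, had 165 UMIs in the 3 injured libraries, of which Microglia held 79, 41 and 36, or 6.55, 5.71 and 4.504 CPM. KCNK16 had 17 UMIs and KCNK18 had 10 UMIs.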

How the results depend on the processing

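Of 56 combinations of member and cell type compared between injured and control, 537 values under alternatives kept direction and side of the threshold in 465 cases, gained a call in 47, lost one in 19 and turned sign in 6. Only the 11 called combinations could lose a call, so that all 19 losses fell on these. KCNQ1 in Endo kept its call in 4 of 10 alternatives, KCNC2 in Endo in 6 of 10, KCNJ3 in Endo in 8 of 10 and KCNMB4 in ExN in 5 of 9. KCNF1 and KCNQ1 in ExN and KCNT2 in InN kept it in 8 of 9. KCNK2, KCNIP1 and KCNQ5 in Endo kept it in all 10 and KCNQ1 in InN in all 9. The sign turned for KCNAB1 in InN on nuclei with at most 2500 genes (-0.13) and, on nuclei without a neuron marker UMI, an alternative added after seeing the data, for KCNMA1 (0.40), KCNIP4 (0.50) and KCNQ1 (0.34) in Astro, KCNQ5 in Oligo (0.94) and KCNIP4 in Endo (-0.57). Members called within a cell type, with 3 in ExN, 2 in InN, 6 in Endo and 0 elsewhere, became 5 in ExN, 5 in InN, 3 in Astro, 2 in Oligo, 1 in OPC, 6 in Microglia and 9 in Endo at an adjusted p of 0.05. They became 1 in ExN and 2 in Microglia on nuclei with at most 2500 genes, 4 in InN and 1 in Microglia with library size alone, and 4 in InN and 2 in Oligo without the filter. With DESeq2 they were 2 in Oligo, 1 in OPC and 4 in Microglia, after thinning 1 in Oligo, and on nuclei without a neuron marker UMI 1 in Astro, 3 in Oligo, 2 in Microglia and 3 in Endo. Leaving out one injured replicate gave 1 to 4 in ExN, 1 to 6 in InN, 0 to 3 in Astro, 0 to 2 in Oligo, 0 to 7 in OPC, 0 to 5 in Microglia and 3 to 8 in Endo, the lowest counts of ExN, InN and Endo without injured replicate 1 and the highest of InN, Astro, Oligo, OPC, Microglia and Endo without injured replicate 2. Apart from the limit of 0.05 and DESeq2, no share over all genes is given for these alternatives. Their counts are therefore not read as particular to the members. The differences between cell types, 1 in InN, 2 in Oligo, 5 in Microglia and 5 in Endo, became 4 in Astro, 5 in Oligo, 7 in Microglia and 9 in Endo at an adjusted p of 0.05. In Oligo they became 0 with RLE factors, 1 with library size alone and 1 after thinning, and in Microglia 3 after thinning. Without the library block they became 0 in InN and 0 in Oligo, and KCNC2 in Endo lost its call (edgeR, adjusted p = 0.0422). Leaving out one replicate gave 0 to 1 in ExN, 0 to 1 in InN, 0 to 2 in Astro and 0 in Oligo. For these alternatives of the interaction no share over all genes is given either, and the same reading holds. Thinning left 1 combination without a value and was a single random draw, and which calls near the limit it lost depends on the draw. After it, KCNIP1 in Endo no longer differed from the other cell types (edgeR, adjusted p = 0.0262). The ratio of the summed share, injured over control, became 1.03 in ExN, 0.998 in Astro, 0.782 in Oligo, 0.885 in OPC, 0.469 in Microglia and 0.974 in Endo on nuclei with at most 2500 genes. After thinning it became 0.8802 in Astro, 0.499 in Microglia and 0.852 in Endo, and without the member of most UMIs over all libraries 0.667 in Astro (without KCNT2) and 0.302 in Microglia (without KCNMA1). Without the member leading in control, added after seeing the data, it became 0.809 in Astro (KCNMA1), 0.948 in Microglia (KCNIP1) and, with its direction turned, 1.13 in Endo (KCNK2). Members with the same leading cell type in both cohorts numbered 24 to 36 under all alternatives run, over 40 to 66 members. The cause of these changes was not tested. No paired analysis was possible because the injured and control libraries come from different animals and the control group has 1 pooled library. Depth limits members of few UMIs most in control Microglia, OPC and Endo.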
